A study of Mus musculus with 4 samples.

Results

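The p53 pathway was examined in mouse erythroleukemia (MEL) cells with and without Wdr26, through 10 genes: Trp53, which encodes p53, and 9 of its established transcriptional targets (Mdm2, Ccng1, Btg2, Sesn1, Trp53inp1, Zmat3, Phlda3, Perp and Aen). The genes were taken by symbol from a table of 17393 genes, and all 10 were present. The cells were of the DS19 line of MEL cells, a transformed mouse line blocked at an early red cell stage. The 4 RNA-seq libraries were 2 of wild-type and 2 of Wdr26-/- cells, numbered 1 and 2 in each genotype. The culture description names 1.5% dimethyl sulfoxide, an agent that drives MEL cells along the erythroid path, without saying whether the cells that were sequenced had been exposed to it. The labels used here do not say how the knockout was made or whether the Wdr26-/- cells are 1 clone.

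p53 is a transcription factor that is held at low protein levels by the ubiquitin ligase Mdm2. DNA damage and other stresses free it from Mdm2, and it then switches on genes that stop the cell cycle, repair DNA, limit growth or kill the cell. Mdm2 is itself one of its targets, so that the pathway limits itself. Control of p53 is largely at the protein level, which RNA-seq does not measure. The Friend virus-induced leukemias from which MEL lines derive often carry a lost or altered Trp53 gene. The labels do not give the Trp53 status of DS19, and a summed RNA level does not show whether the transcripts encode a working protein. Wdr26 is a subunit of the CTLH ubiquitin ligase.

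p53 recognises a 20-base element made of a repeated motif. Promoters of 7 of the 10 genes could be matched by symbol in a RefSeq table (build GRCm38.p6, 9 windows of 300 bases around a transcription start). They were searched for the consensus of the p53 response element without a spacer. The C and G of both core motifs were required, and up to 3 other positions could depart from the consensus. The consensus reads the same on both strands, so one search covers both. Matches were present for 4 of the 7 genes, Ccng1, Trp53, Sesn1 and Aen. Counted by window rather than by gene, 1.38% of the 32851 windows in the table held a match. A gene with several windows has more chances of a match. No such match was present in the windows of Mdm2, Btg2 and Phlda3. Sequence outside the windows and elements with a spacer were not searched, so these genes may still hold an element. Ccng1 had the closest match among these 7 genes, with 1 departure, a closeness reached in 0.067% of all windows. The stretches that hold these matches follow with the element in capitals. That of Cdkn1a, the arrest gene that encodes p21, is added, as its window also holds a match with 1 departure. The start used for Cdkn1a is the first base of the gene, whose level sums 2 transcripts. These stretches show the letters p53 could read beside annotated start sites of the genes measured. A match is a description of sequence and does not show binding in these cells.

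Ccng1 (chr11:40755337-40755536, minus strand, element 195 to 176 bases before the start): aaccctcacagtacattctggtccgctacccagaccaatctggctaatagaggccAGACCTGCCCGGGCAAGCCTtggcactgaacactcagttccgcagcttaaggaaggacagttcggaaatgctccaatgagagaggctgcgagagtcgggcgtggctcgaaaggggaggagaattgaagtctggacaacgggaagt
Trp53 (chr11:69580224-69580343, plus strand, element 75 to 56 bases before the start, 3 departures): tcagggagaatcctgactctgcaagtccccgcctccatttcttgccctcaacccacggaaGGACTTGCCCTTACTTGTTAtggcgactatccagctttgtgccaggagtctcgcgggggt
Sesn1 (chr10:41887226-41887325, plus strand, element 173 to 154 bases before its second annotated start, 3 departures): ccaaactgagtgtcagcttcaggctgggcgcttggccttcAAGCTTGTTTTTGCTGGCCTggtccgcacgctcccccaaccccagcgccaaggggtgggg
Aen (chr7:78895932-78895961, plus strand, element 11 to 30 bases after the first of its annotated starts, 3 departures): aagccGGGCTTGTCCGGGCAAGGAGcttcc
Cdkn1a (chr17:29090884-29090973, plus strand, element 51 to 32 bases before the start): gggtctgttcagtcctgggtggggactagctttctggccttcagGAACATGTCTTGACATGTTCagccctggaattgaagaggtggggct

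Levels are given in FPKM, read fragments corrected for the length of the transcript and the size of the library, so they can be compared between genes. The files give no counts, and the depth behind each value is unknown. Wdr26 stood at 55.4 and 52.4 FPKM in wild type, against 9 and 7.84 FPKM in knockout, 15.6% of the wild-type mean. The test covered the 10670 genes that reached 1 FPKM in 2 or more libraries, and 10 of them passed, 0.0937% of the genes tested (limma on log2(FPKM + 1), Benjamini-Hochberg adjusted p under 0.05). The median log2 change over all genes tested was 0.067. Red cell genes marked the libraries as erythroid, with 10 of 10 erythroid markers tested, none passing, and 6 of them lower in both knockout libraries (60%, beside 10.8% of all genes tested). Their summed level, nearly all of it globin, was 169400 and 208100 FPKM in wild type, against 153800 and 179300 FPKM in knockout. When 11 globin genes were removed and library totals recomputed, 0 of the 10 genes passed and 21 of all genes did. The median log2 change of the 10 went from −0.017 to −0.073, and that of all genes tested from 0.067 to 0.016. The log2 change of Sesn1 went from 0.037 to −0.018. The part of the other erythroid markers was not tested. Markers of lymphoid cells and fibroblasts did not exceed 0.58 FPKM and those of myeloid cells 2.25 FPKM, with Elane and Cd3e listed at 0 in every library. Of 6 megakaryocyte markers, 3 were tested, none passing, and Itga2b reached 240 FPKM. The labels do not tell whether the libraries are separate cultures, so p-values reflect only the spread among these libraries, which may be technical. In such bulk RNA, fewer cells expressing a gene and less RNA per cell cannot be told apart.

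None of the 10 genes passed the test between knockout and wild type, and their differences pointed both ways. Perp, a membrane protein of cell death and cell adhesion, had the largest difference: it was low in wild type and listed at 0 in both knockout libraries. Trp53 itself was abundant and 1.16-fold higher by means in the knockout, with a confidence interval that reached 0. The other 8 genes differed between group means by at most 1.21-fold in either direction. At an unadjusted p under 0.05, 1 of the 10 genes remained (Perp), where 11.4% of all genes tested did so. Perp was tested only because of its wild-type libraries.

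**Figure D1:**
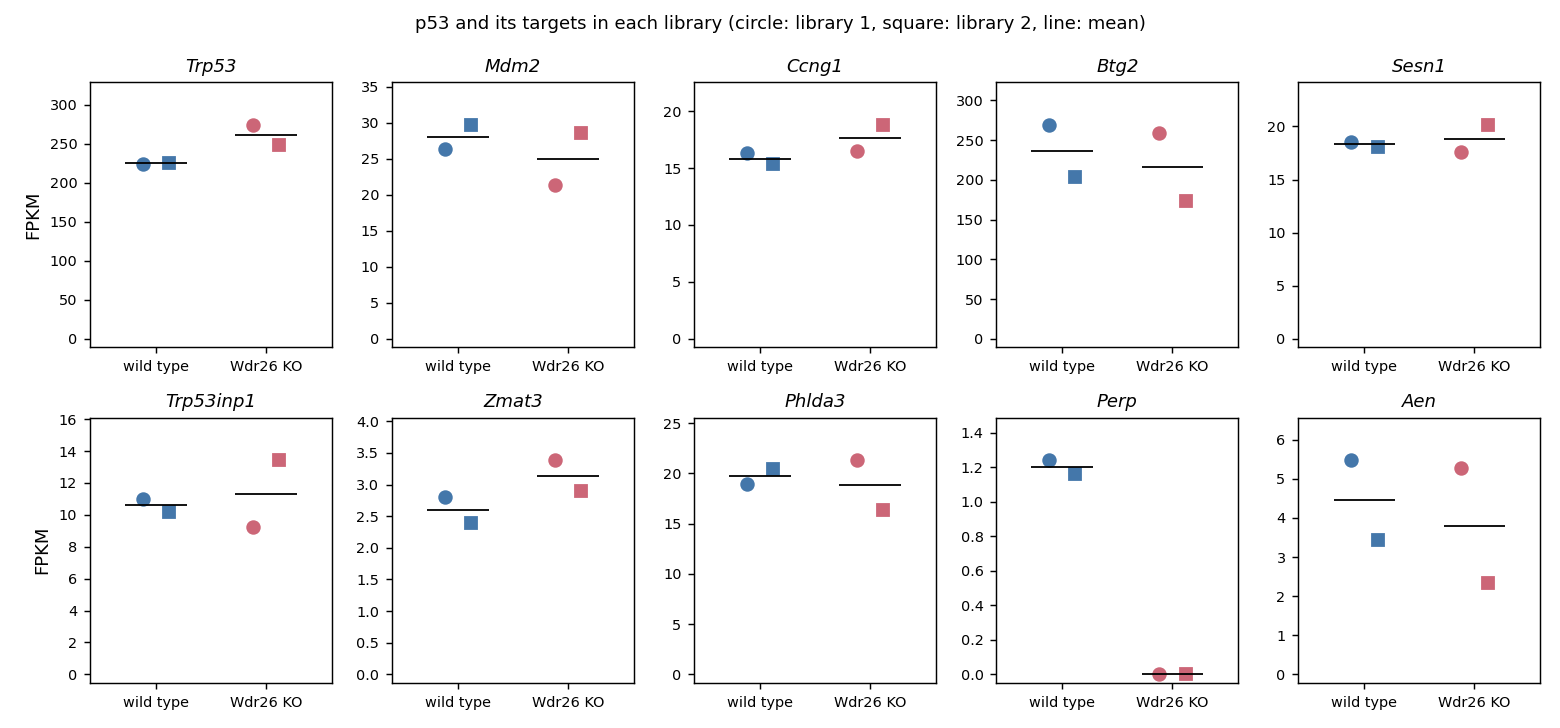
FPKM of each of the 10 genes (vertical axes, each from 0) in the wild-type (blue) and Wdr26 knockout (red) libraries, with circles for libraries numbered 1, squares for libraries numbered 2 and a line at each group mean. Trp53, Ccng1 and Zmat3 lie higher in both knockout libraries, Perp is at 0 in both, and the groups of the other 6 genes overlap.

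Trp53 (gene ID 22059, chromosome 11, 69580348 to 69591873, mm10) stood at 224 and 226 FPKM in wild-type libraries 1 and 2 and at 274 and 248 FPKM in knockout libraries 1 and 2. Both knockout libraries were thus higher than both wild-type libraries. The means were 225 ± 1.32 and 261 ± 18.1 FPKM (SD, n = 2). The log2 change was 0.21 (SE 0.13, 95% confidence interval −0.12 to 0.54, limma adjusted p = 0.644). With a wild-type mean above that of 97.5% of the genes tested, Trp53 was among the most abundant transcripts of these cells. Its value sums 2 RefSeq and 3 assembled transcripts, and the gene table also lists a pseudogene, Trp53-ps, to which some of its reads could align. Wrap53 lies head to head with Trp53, with a gap of 97 bases between the 2 genes in the gene table. It was at 6.94 and 5.31 FPKM in wild type, against 7.45 and 6 FPKM in knockout, and its groups overlapped.

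Of the feedback inhibitors, Mdm2 (gene ID 17246) encodes the ligase that marks p53 for destruction. It stood at 26.4 and 29.7 FPKM in wild type, against 21.4 and 28.6 FPKM in knockout. The groups overlapped, with knockout library 1 the lowest of the 4 (log2 change −0.17, 95% confidence interval −0.60 to 0.25, limma adjusted p = 0.802). Ccng1 (gene ID 12450) encodes cyclin G1, which acts with a phosphatase on Mdm2, and its promoter holds a match with 1 departure, shown above. It stood at 16.3 and 15.4 FPKM in wild type, against 16.5 and 18.8 FPKM in knockout. The knockout libraries were both higher, the first by 1.01-fold against its wild-type library of the same number and the second by 1.22-fold (log2 change 0.15, 95% confidence interval −0.19 to 0.48, limma adjusted p = 0.786).

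Among genes of growth arrest and stress control, Btg2 (gene ID 12227), an antiproliferative gene that acts on mRNA decay, was by far the most abundant. It stood at 269 and 204 FPKM in wild type, against 258 and 174 FPKM in knockout. In each genotype library 2 was the lower one, and the groups overlapped (log2 change −0.14, 95% confidence interval −0.72 to 0.43, limma adjusted p = 0.892). Sesn1 (gene ID 140742), a sestrin that restrains mTORC1 under stress, was at 18.6 and 18.0 FPKM in wild type, against 17.6 and 20.1 FPKM in knockout. Its log2 change of 0.037 had a 95% confidence interval of −0.30 to 0.37 (limma adjusted p = 0.957), which on the FPKM + 1 scale spans 0.815-fold to 1.29-fold.

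Trp53inp1 (gene ID 60599), a stress-induced cofactor of p53 that also acts in autophagy, was at 10.99 and 10.2 FPKM in wild type, against 9.26 and 13.4 FPKM in knockout. The knockout libraries lay on either side of the wild-type pair (log2 change 0.070, 95% confidence interval −0.40 to 0.54, limma adjusted p = 0.940). Zmat3 (gene ID 22401) encodes a zinc finger protein that binds RNA. It was low, at 2.80 and 2.39 FPKM in wild type, against 3.38 and 2.90 FPKM in knockout, so that both knockout libraries were higher. The ratio of knockout to wild type was the same at both library numbers, 1.21, and the log2 change of 0.20 did not pass (95% confidence interval −0.20 to 0.61, limma adjusted p = 0.742). Zmat3 overlaps a long non-coding RNA gene, 4930429B21Rik, and without strand information their reads may be shared.

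The last 3 genes are linked to cell death. Phlda3 (gene ID 27280), which encodes a p53-induced inhibitor of Akt signalling, was at 18.9 and 20.5 FPKM in wild type, against 21.3 and 16.4 FPKM in knockout. The knockout libraries were the highest and the lowest of the 4 (log2 change −0.072, 95% confidence interval −0.47 to 0.33, limma adjusted p = 0.926). Aen (gene ID 68048), an apoptosis-enhancing nuclease, was at 5.47 and 3.44 FPKM in wild type, against 5.27 and 2.34 FPKM in knockout. Like Btg2 it was lower in library 2 of each genotype, and its interval was the widest of the 10 (log2 change −0.23, 95% confidence interval −1.04 to 0.59, limma adjusted p = 0.882).

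Perp (gene ID 64058, chromosome 10, 18845071 to 18857073, mm10) was the lowest of the 10 genes, at 1.24 and 1.16 FPKM in wild type, and was listed at 0 in both knockout libraries. The groups did not overlap. The log2 change of (FPKM + 1) was −1.14 (SE 0.18, 95% confidence interval −1.58 to −0.69, unadjusted p = 0.000715, limma adjusted p = 0.125). No fold change is given, since the file holds no counts, and the log2 change depends on the pseudocount: it was −3.70 with a pseudocount of 0.1. Perp passed without knockout library 1 (limma adjusted p = 0.00826) and without knockout library 2 (0.0206), fits in which the remaining knockout library is assumed to vary like the wild-type pair. Perp entered the test only through its wild-type libraries, and a listed 0 can be a failed estimate. Among 477 genes with a single transcript within 100 bases of the length of Perp, the smallest values above 0 in the knockout libraries were 0.01 and 0.02 FPKM. In the whole table Perp was 1 of 2 genes with at least 1 FPKM in both wild-type libraries and 0 in both knockout libraries, the other being Lgals7, which encodes galectin-7. The reverse pattern, 0 in both wild-type libraries and at least 1 FPKM in both knockout libraries, was shown by 0 genes.

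**Figure D2:**
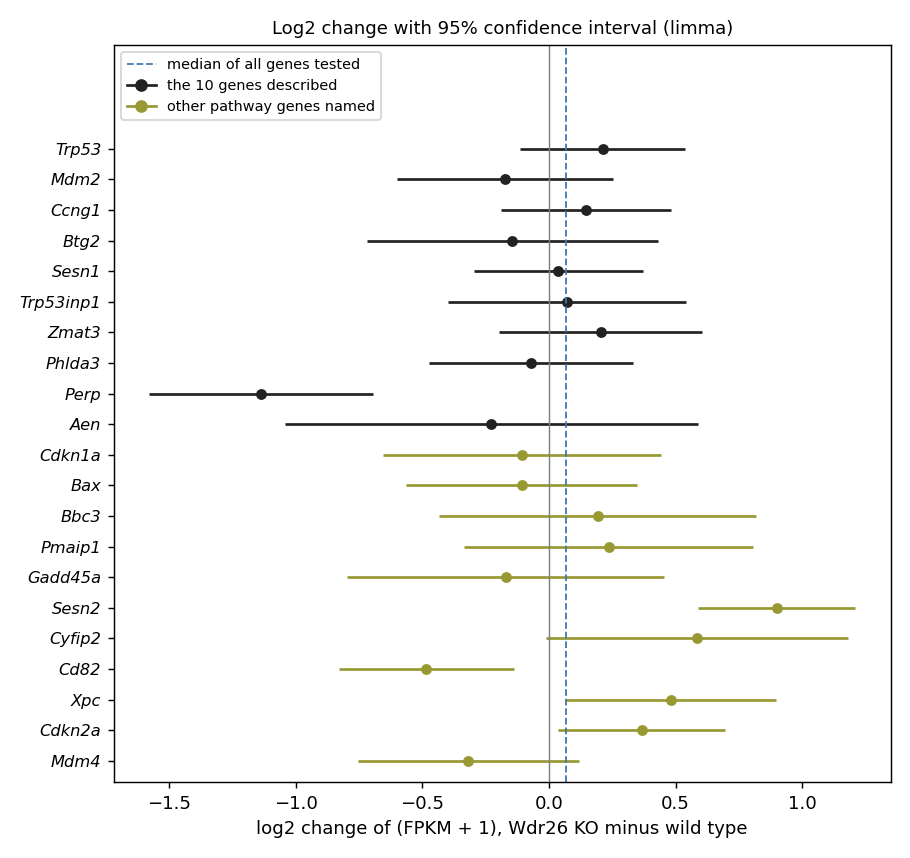
Log2 change of (FPKM + 1), knockout minus wild type (horizontal axis), with 95% confidence intervals from limma, for the 10 genes (black). Olive marks Cdkn1a, Bax, Bbc3, Pmaip1, Gadd45a, Sesn2, Cyfip2, Cd82, Xpc, Cdkn2a and Mdm4, and other pathway genes named in the text are not drawn. The dashed line at 0.067 is the median of all genes tested. Perp is the only one of the 10 whose interval does not reach 0, and the other 9 point estimates lie between −0.23 and 0.21.

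The directions of the 10 were close to those of all genes tested. Of the 10, 3 were higher in both knockout libraries (30.0%), as were 29.9% of all genes tested. In the other direction 1 of 10 was lower in both (10.0%), as were 10.8% of all genes tested. The median log2 change of the 10 was −0.017, and 0.037 without Perp, beside 0.067 for all genes. When each library was centred on its median, Trp53 and Zmat3 stayed higher in both knockout libraries and Ccng1 no longer was, while 19.9% of all genes tested were higher and 20.1% lower in both.

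Some of the 10 genes also differed with the library number. Btg2, Aen and Zmat3 were lower in the second library of each genotype, 3 of 10 genes, against 46.5% of all genes tested. Aen in library 2 was at 0.629 of its library 1 level in wild type and at 0.444 in knockout. For Btg2 these ratios were 0.760 and 0.672. Mdm2 alone of the 10 was higher in library 2 of both genotypes, 1.13-fold and 1.34-fold, as were 24% of all genes tested. What the library number stands for is not given in the labels.

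**Figure D3:**
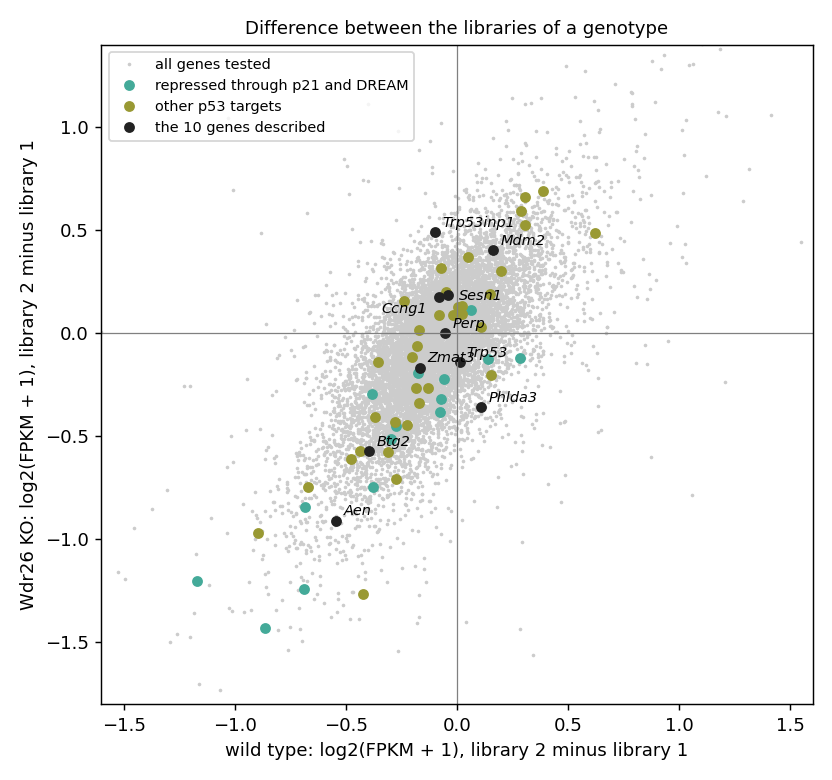
Difference between library 2 and library 1 in log2(FPKM + 1), in wild type (horizontal axis) and in knockout (vertical axis), for all genes tested (grey), other p53 targets (olive), genes repressed through p21 and DREAM (green) and the 10 genes (black, named). Aen and Btg2 lie at the lower left, Mdm2 at the upper right, and 31 genes of the grey cloud fall outside the plotted range.

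Further p53 targets were taken from a list of 48 genes, of which 45 were in the table and 35 were tested. None passed (limma adjusted p of at least 0.101), and 3 did so at an unadjusted p under 0.05, Sesn2, Cd82 and Xpc, where 11.4% of all genes tested did so. In the knockout 13 of the 35 were higher in both libraries (37.1%, beside 29.9% of all genes) and 3 were lower in both (8.57%, beside 10.8%). Their median log2 change was 0.13. With median-centred values 9 of the 35 were higher and 4 lower in both, beside 19.9% and 20.1% of all genes tested.

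Cdkn1a, the p21 gene and the best known arrest target of p53, was at 16.3 and 13.0 FPKM in wild type, against 16.6 and 10.8 FPKM in knockout. Its groups overlapped, with library 2 the lower of each pair (log2 change −0.11, 95% confidence interval −0.66 to 0.44, limma adjusted p = 0.917). The values of the pro-apoptotic targets Bax, Bbc3 and Pmaip1 also overlapped between genotypes. Bax, a pore-forming protein of the mitochondrial membrane, averaged 65.6 ± 7.26 and 61.4 ± 13.5 FPKM (SD, n = 2). Bbc3, which encodes the BH3-only protein Puma, averaged 42.7 ± 13.2 and 48.5 ± 11.7 FPKM, and Pmaip1, which encodes Noxa, 4.72 ± 0.799 and 5.84 ± 1.97 FPKM. Gadd45a, a growth arrest gene induced by DNA damage, averaged 132 ± 25.1 FPKM in wild type, against 119 ± 39.8 FPKM in knockout.

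Sesn2, the sestrin paralogue of Sesn1, differed most among these targets. It stood at 17.1 and 17.3 FPKM in wild type, against 31.9 and 34.1 FPKM in knockout, a 1.92-fold ratio of means with narrow pairs in both genotypes. The log2 change was 0.90 (SE 0.13, 95% confidence interval 0.59 to 1.21, unadjusted p = 0.000365, limma adjusted p = 0.101), so Sesn2 did not pass over all genes. Sesn2 is also known to be induced by Atf4 in the response to amino acid and endoplasmic reticulum stress. Without knockout library 1 or 2 the adjusted p was 0.00014 or 0.00201, and without wild-type library 1 or 2 it was 0.619 or 0.503.

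Others of the list showed smaller differences. Xpc, a damage sensor of nucleotide excision repair, was at 4.86 and 5.72 FPKM in wild type, against 6.89 and 8.73 FPKM in knockout (limma adjusted p = 0.382). Cyfip2, a subunit of the actin-regulating WAVE complex, was at 8.32 and 10.5 FPKM, against 11.4 and 18.6 FPKM (limma adjusted p = 0.448). Cd82, a tetraspanin, was lower in the knockout, at 59.98 and 66.9 FPKM in wild type, against 48.3 and 41.9 FPKM in knockout (limma adjusted p = 0.305).

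Regulators and partners of p53 formed a list of 29 genes, 28 of them in the table and 27 tested. None passed, and 1 did so at an unadjusted p under 0.05, Cdkn2a (11.4% over all genes tested). The counts higher and lower in both knockout libraries were 10 (37.0%) and 2 (7.41%), beside 29.9% and 10.8% of all genes tested. After centring they were 3 and 6 of the 27, beside 19.9% and 20.1% of all genes tested. Cdkn2a, whose Arf product blocks Mdm2 and whose other product is the Cdk inhibitor p16, stood at 93.4 and 105 FPKM in wild type, against 132 and 124 FPKM in knockout (log2 change 0.37, 95% confidence interval 0.036 to 0.70, limma adjusted p = 0.395). The summed value does not separate the Arf and p16 transcripts. Npm1, a nucleolar protein that binds Arf, was at 171 and 161 FPKM in wild type, against 207 and 192 FPKM in knockout (limma adjusted p = 0.542). Mdm4, which pairs with Mdm2 against p53, was at 11.4 and 10.9 FPKM in wild type and lower in both knockout libraries, at 7.39 and 10.3 FPKM (limma adjusted p = 0.596). Atr, a kinase of the replication stress response, was at 1.55 and 1.71 FPKM, against 1.06 and 1.18 FPKM (limma adjusted p = 0.582). Trp73, a p53 relative, was listed at 0.01 FPKM in every library.

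When p53 induces p21, the DREAM repressor complex forms and lowers genes of cell division. Of 15 such genes, all were tested and none passed, with Ccna2 alone at an unadjusted p under 0.05 (11.4% over all genes tested). In the knockout 3 were lower in both libraries (20.0%, beside 10.8% of all genes) and 0 were higher in both, and after centring 7 were lower and 0 higher (20.1% and 19.9% of all genes tested). All 15 log2 changes were negative, from −0.387 to −0.0646, with a median of −0.11, beside 0.067 for all genes. The share of all genes tested with a negative change was not counted. The groups of 12 of the 15 genes overlapped. Between libraries numbered 1, the knockout was higher for some of the 15, by up to 1.17-fold. Between libraries numbered 2 it was lower for all of them. The p21 gene Cdkn1a had a log2 change of −0.11, with overlapping groups. Ccna2, which encodes the S and G2 phase cyclin A2, was at 49.0 and 43.2 FPKM in wild type, against 37.4 and 32.6 FPKM in knockout (limma adjusted p = 0.395). The mitotic cyclin gene Ccnb1 was at 47.3 and 45.5 FPKM, against 40.2 and 34.3 FPKM (limma adjusted p = 0.479), and the mitotic phosphatase gene Cdc25c at 12.4 and 13.0 FPKM, against 10.9 and 11.8 FPKM (limma adjusted p = 0.760). Of these 15 genes 12 were lower in library 2 of both genotypes (80.0%, beside 46.5% of all genes). The same held for 3 of the 10 genes (30.0%) and for 16 of the 35 other targets (45.7%). Of those 35, 12 were higher in library 2 of both genotypes (34.3%, beside 24% of all genes).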

How the data were processed

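RNA was depleted of ribosomal RNA and sequenced in 4 libraries, per the labels' protocols. The submitters' processing notes name TopHat2 and mm10. The quantification program is not given in the sources used. The authors deposited 1 table with no unit in its header. Its values were taken as FPKM because, multiplied by transcript length (GENCODE M21), the deposited values sum to between 1.02e+09 and 1.04e+09 per library. On the log2(FPKM + 1) scale, genes that reached 1 FPKM in 2 or more libraries were compared between genotypes with limma 3.58.1 in R 4.3.3 (eBayes with a trend, no covariates), with Benjamini-Hochberg adjustment over all 10670 genes at 0.05. The log scale understates changes of low genes. The procedure was tested on simulated data. With 2 libraries against 2, no permutation test of a single gene could pass.

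The 10 genes and the other lists were chosen with earlier results of these data known. Genes were named by a rule: the 10, Wdr26, and from each further list 5 or 3 set genes or none, any gene past the threshold and up to 4 with the largest change and no overlap. Lgals7, Trp53-ps, 4930429B21Rik, Trp73, Elane, Cd3e, Itga2b and the genes named for passing under an alternative were named after values were seen. Fas, Eda2r, Kitl and Trp63 were listed and are not analysed here. Coordinates are those of RefSeq genes of GRCm38.p6 (mm10). Symbols turned into dates by a spreadsheet (24) were restored by gene ID. The alternatives were median-centred and quantile-normalized values, no filter, a mean of at least 5 FPKM, no trend, the library number as a block, a pseudocount of 0.1, each library left out, and 11 globin genes left out with totals rescaled. Single values of 2 of the cell type markers are not reported here.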

Additional observations from a re-analysis of the deposited data

How the results depend on the processing

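The 10 genes gave 115 values under the alternatives, of which 99 kept both their direction and their side of the threshold. No gene of the 10 passed under centring, quantile normalization, no filter, no trend, a pseudocount of 0.1 or the globin alternative, and none of the 7 tested at a mean of at least 5 FPKM, where Perp, Zmat3 and Aen were not tested. With the library number as a replicate block, same-numbered libraries are treated as pairs, though the labels do not say what the number stands for. The differences between libraries 1 and 2 in wild type and in knockout correlated at 0.606 across genes, which are not independent replicates. In this fit 1 of the 10 passed, Perp (limma adjusted p = 8.72e-07). Perp entered this fit only through its wild-type libraries, and its knockout values, both listed at 0, add no spread. Of the other lists, 6 other targets passed (Sesn2, limma adjusted p = 3.69e-09, Cd82, Cyfip2, Xpc, Polk and Ptp4a3). So did 1 regulator (Cdkn2a), 4 DREAM genes (Birc5, Ccna2, Ccnb1 and Mcm5) and 1863 of all genes. With single libraries left out, 0 to 1 of the 10, 0 to 4 other targets, 0 to 3 DREAM genes and 0 to 720 of all genes passed, and no regulator did. The 720 came without knockout library 1, 314 without knockout library 2 and 0 without either wild-type library, in which Perp was not tested. Over all genes 0 passed without the filter, 2 at a mean of 5 FPKM or more and 21 without globin genes.

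The median log2 change of the 10 was −0.094 after centring, −0.10 after quantile normalization, −0.073 without globin genes and 0.037 at a mean of at least 5 FPKM (7 genes). The median of all genes tested was −0.00945, −0.0070, 0.016 and 0.068 in these fits, in the same order, beside 0.067 in the main fit. It ran from 0.017 to 0.083 with single libraries left out. Directions turned for genes near 0: Trp53inp1 to −0.0068 and −0.016, and Sesn1 to −0.040 and −0.045, under centring and quantile normalization, and Sesn1 to −0.018 without globin genes. With single libraries left out, the log2 changes ran from −0.18 to 0.32 for Trp53inp1, −0.055 to 0.13 for Sesn1, −0.68 to 0.23 for Aen, −0.43 to 0.14 for Btg2, −0.38 to 0.027 for Mdm2 and −0.25 to 0.11 for Phlda3. The turns came without knockout library 2 (Trp53inp1, Sesn1, Phlda3, Aen and Btg2), without wild-type library 1 (Aen and Btg2) and without knockout library 1 (Mdm2), and their cause was not tested. The unknown depth limits what can be said of genes with low values, Perp among them.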
